A study of Mus musculus with 11 samples.

Results

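Undifferentiated spermatogonia of aged mice were compared with those of adult mice across all genes. The comparison used 4 of the 11 RNA-Seq libraries of the series, 2 titled as KIT- cells of 15 months and 2 titled as KIT- cells of 8 months, and these titles alone chose them. All 4 came from mice of B6;CBA-Tg(Pou5f1-EGFP)2Mnn/J, in which a transgene carrying regulatory sequence of Pou5f1 (Oct4) drives a green fluorescent protein in germ cells, and were sorted as Oct4-GFP+ cells without KIT on the surface. Below, adult KIT- means 8 months and aged KIT- means 15 months, as the labels have it. The study's own text gives age ranges for these groups, and its methods name a younger adult age, so the exact ages are uncertain. The other 7 libraries were KIT+ cells of both ages (1 adult and 2 aged libraries) and KIT- and KIT+ cells of 6-day-old mice. Each population was sorted in a pair of separate experiments, RNA had an integrity number over 9, and it was depleted of ribosomal RNA and read as 100 bp pairs on a HiSeq 2000. The labels do not say how many animals were pooled, so p-values measure the spread between these libraries.

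Spermatogonial stem cells lie on the basement membrane of the seminiferous tubule and either renew themselves or give rise to differentiating spermatogonia, which gain the receptor KIT and the meiotic inducer STRA8. Their progeny become spermatocytes, which pair and recombine their chromosomes, and then spermatids, which build an acrosome and a flagellum and replace their histones first by transition proteins and then by protamines. RNAs of protamines, of the fibrous sheath and of sperm glycolytic enzymes are therefore usually taken as marks of spermatids rather than of spermatogonia. In bulk RNA, fewer cells of a type and less RNA per cell cannot be told apart.

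The values were RPKM, read counts corrected for exon length and for library depth. The adult KIT- libraries held 12238321 and 16627840 reads by the steps of their RPKM values, and the aged KIT- libraries held 39467199 and 33593665. Although shallower, the adult libraries listed more genes above 0, 20049 and 21285 against 19487 and 17182. After thinning to equal depth the number of genes with at least 10 reads was 14657 and 14504 in adult and 14702 and 14356 in aged libraries. The cells matched their label: Kit, the receptor used for the sort, was at 5.63 and 6.47 RPKM in adult and 9.66 and 7.88 in aged KIT- libraries, against 62.8 to 81.3 in the 3 KIT+ libraries of these ages. Pou5f1, whose sequence drives the reporter, was at 68.7 and 52.6 RPKM in adult and 44.9 and 70.2 in aged KIT- libraries, and the ages overlapped.

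Of 18412 genes tested, 613 were higher and 412 lower in aged KIT- cells, that is 3.33% and 2.24% of those tested and 5.57% together (limma on log2(RPKM + 1), Benjamini-Hochberg adjusted p of at most 0.05 and at least 1.5-fold). The libraries of the 2 ages did not overlap in any of these 1025 genes, and they did not overlap in 49.6% of all tested genes. The spread behind this test came from all 11 libraries. With only the 4 KIT- libraries of these ages in the fit, 0 genes were called by limma, while 3023 had an unadjusted p under 0.05. Voom weights on reads gave 222 higher and 229 lower genes, leaving out adult replicate 1 gave 203 and 88, leaving out adult replicate 2 gave 145 and 107, and leaving out aged replicate 1 or 2 gave 952 and 748 or 1054 and 568. Log2 differences below are 15 months minus 8 months on log2(RPKM + 1), which understates the change of genes near 0, and are given with the standard error.

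**Figure D1:**
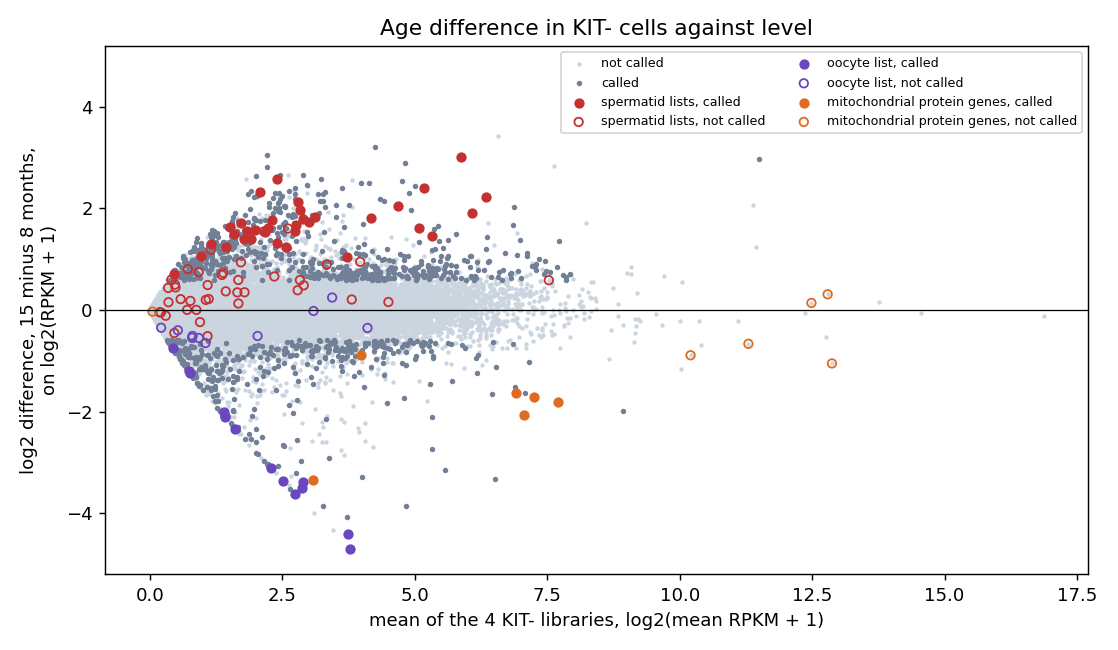
Log2 difference between aged and adult KIT- cells on log2(RPKM + 1) against the level over the 4 libraries. Each point is 1 of 18412 tested genes, with filled symbols for called members of the spermatid, oocyte and mitochondrial lists and open symbols for members not called. All 34 called spermatid genes lay above 0, and all called oocyte and mitochondrial genes lay below it.

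SNORA17 and AC161763.1 had the lowest p among higher and among lower genes, and both are short RNAs whose sequence bears on how far their values can be read. SNORA17 (ENSMUSG00000077707), annotated as a small nucleolar RNA at chr12:78915667-78915796 on the minus strand of NCBIM37 (mm9), had 0 RPKM in both adult KIT- libraries and in all 3 KIT+ libraries of these ages, and 7.41 and 7.10 RPKM in the aged KIT- libraries, from 38 and 31 reads. It was thus at least 4.43-fold higher in aged KIT- cells against a floor of 3 reads per library (adjusted p = 7.56e-05, limma). Among libraries of these ages only the aged KIT- pair met the filter of at least 10 reads. Groups with all libraries at 0 add no spread to the fit, which lowers this p. The annotated sequence occurred 1 time in the genome, 338342 bp from the nearest annotated gene, Fut8. Of the 9 tested genes that carry this name it was the only one called. AC161763.1 (ENSMUSG00000093126), annotated as a miRNA gene at chr7:152100376-152100446 on the plus strand, had 148 and 182 RPKM in adult and 15.0 and 15.9 in aged KIT- libraries, a log2 difference of -3.33 ± 0.14 (adjusted p = 7.56e-05, limma). Its sequence had 16 exact copies in the genome, so the place from which its reads came is uncertain. It was also at 144 RPKM in the adult KIT+ library against 10.7 and 8.81 in the aged KIT+ libraries. Both sequences are given 5′ to 3′ in lower case, since one had a single copy and the other many.
SNORA17: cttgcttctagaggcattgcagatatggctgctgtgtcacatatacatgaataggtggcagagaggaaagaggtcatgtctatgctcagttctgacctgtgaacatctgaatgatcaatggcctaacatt
AC161763.1: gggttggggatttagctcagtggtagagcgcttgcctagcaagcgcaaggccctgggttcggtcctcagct

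Among the gene lists, those of spermatids and sperm held the most genes higher in aged KIT- cells. Of the 80 genes in the lists for spermatid chromatin, flagellum and energy, and acrosome, 74 were tested, 34 were higher and 0 were lower, against 3.33% and 2.24% of all genes. Their median log2 difference was 0.94 (0.99 with 1 gene that was at 0 at 1 age set at its bound), while the median of all tested genes was -0.01. Without replicate 1 or 2 of adult KIT- cells 21 or 12 genes were called higher, and with voom weights on reads 9.

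Spermatid chromatin contributed 6 higher genes of 12 tested. Tnp2, a transition protein, was at 12.7 and 8.54 RPKM in adult and 64.2 and 54.7 in aged KIT- libraries (2.40 ± 0.22, adjusted p = 0.00155, limma). Prm1, a protamine, was at 1.39 and 1.67 RPKM in adult and 8.10 and 12.5 in aged libraries (2.13 ± 0.21, adjusted p = 0.00205, limma). Both aged libraries stood above both adult libraries for each gene, with Prm1 higher in replicate 2 and Tnp2 nearly equal in both. Prm2, the second protamine, went from 37.2 and 17.0 to 187 and 80.0 RPKM, and Prm3 from 0.402 and 0.443 to 11.6 and 4.68. Tnp1, the other transition protein, went from 34.0 and 17.7 to 155 and 58.0 RPKM (1.91 ± 0.44, adjusted p = 0.0444, limma), and H1fnt, a spermatid linker histone, went from 1.73 and 0.862 to 7.57 and 4.58. In the latter 4 genes replicate 1 of the aged libraries was the higher one, and without it the adjusted p was 0.0541 for Prm2 and 0.07 for Tnp1 (limma). Crem, a transcription factor of spermatids, and Brdt, a bromodomain protein of meiotic and postmeiotic cells, were not called (0.35 ± 0.23 and 0.16 ± 0.18).

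Tnp2, Prm3, Prm2 and Prm1 lie side by side within 8951 bp of chromosome 16 (chr16:10788029-10796979, mm9), and all 4 were higher in aged KIT- cells. Because neighbouring genes moved together, the 120 bases before each start site are shown from RefSeq (GRCm38.p6), with runs of TATA or TATATA in capitals.
Tnp2, chr16:10788656-10788775, minus strand: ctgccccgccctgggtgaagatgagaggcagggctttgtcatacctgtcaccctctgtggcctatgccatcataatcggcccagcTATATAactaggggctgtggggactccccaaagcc
Prm3, chr16:10790915-10791034, minus strand: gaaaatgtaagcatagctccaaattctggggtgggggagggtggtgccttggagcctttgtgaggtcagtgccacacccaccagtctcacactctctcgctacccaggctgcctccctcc
Prm2, chr16:10792106-10792225, minus strand: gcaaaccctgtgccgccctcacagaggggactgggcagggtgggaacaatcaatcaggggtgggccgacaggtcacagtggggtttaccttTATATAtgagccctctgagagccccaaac
Prm1, chr16:10796824-10796943, minus strand: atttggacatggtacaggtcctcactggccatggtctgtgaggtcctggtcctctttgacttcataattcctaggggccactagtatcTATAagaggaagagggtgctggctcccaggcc
Prm3, whose window held no such run, had the largest log2 difference of the 4 (2.57 ± 0.31). Over the 34 called spermatid genes, 25 matched a RefSeq promoter by symbol, giving 32 promoters. TATAAA on either strand was in the 250 bases before the start of 3 of them (9.38%, against 12.4% of all 32851 promoters). The cyclic AMP response element TGACGTCA was in 0 of them (1.55% of all) and its core TGACGT, which it contains, in 1 (3.13%, against 6.47% of all). CNCCTCAG, a motif reported for STRA8, was in 1 (3.13%, against 6.42% of all), and in 0 of 3 promoters of the called meiotic genes. TATA on the sense strand in the last 40 bases, a window chosen after the sequences were seen, was in 5 of the 32 (15.6%, against 7.63% of all).

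Flagellum and energy genes made up most of the group, with 25 of 44 higher. A separate list of motile axoneme genes had 0 higher and 1 lower of 34 tested, with a median log2 difference of 0.22. Gsg1, a germ cell protein of the endoplasmic reticulum, was at 13.3 and 10.1 RPKM in adult and 125 and 82.2 in aged KIT- libraries (3.02 ± 0.29, adjusted p = 0.00178, limma). Its span overlaps 8430419L09Rik, and with the strand of counting not stated their reads cannot be told apart. Cmtm2a, of a chemokine-like family, was at 0.510 and 0.328 RPKM in adult and 5.71 and 6.41 in aged libraries (2.32 ± 0.14, adjusted p = 0.000242, limma), and lies within the span of Cmtm1. Akap4, the main anchoring protein of the fibrous sheath, went from 9.56 and 7.33 to 56.2 and 25.7 RPKM, and Ropn1, a protein bound to that sheath, from 0.502 and 0.555 to 4.72 and 3.45. Tsks, a substrate of testis kinases, went from 2.48 and 1.41 to 10.9 and 9.83 RPKM (1.97 ± 0.29). Oaz3, the antizyme of spermatids, went from 21.3 and 10.9 to 54.7 and 43.7 RPKM (1.61 ± 0.28). The aged libraries lay above the adult ones throughout these genes. Sperm glycolysis was represented by Gapdhs (0.999 and 0.967 to 4.16 and 5.77 RPKM) and by Aldoart1 and Aldoart2, retrogene copies of aldolase whose reads may be shared. Odf1 of the outer dense fibres, Akap3 of the fibrous sheath, the spermatid kinases Tssk2 and Tssk3, the actin-linked Capza3, Actl7a and Fscn3, and the germ cell genes Spata18, Spata19, Spem1, Cetn1, Spert, Tcp11 and Spz1 were also called higher. Of the cation channel genes of the sperm tail, Catsper1 was under 1.5-fold (0.44 ± 0.08, adjusted p = 0.0253, limma), and Catsper2 (0.59), Catsper3 (-0.04) and Catsper4 (0.15) did not pass. The acrosome list had 3 higher genes of 18 tested, Fam170b, Spaca3 and Spata16, all at or under 5.18 RPKM. Acr, the acrosomal protease, was at 0.489 and 0.680 RPKM in adult and 0.0169 and 0.317 in aged libraries, and Acrv1 was listed at 0 in both aged libraries.

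**Figure D2:**
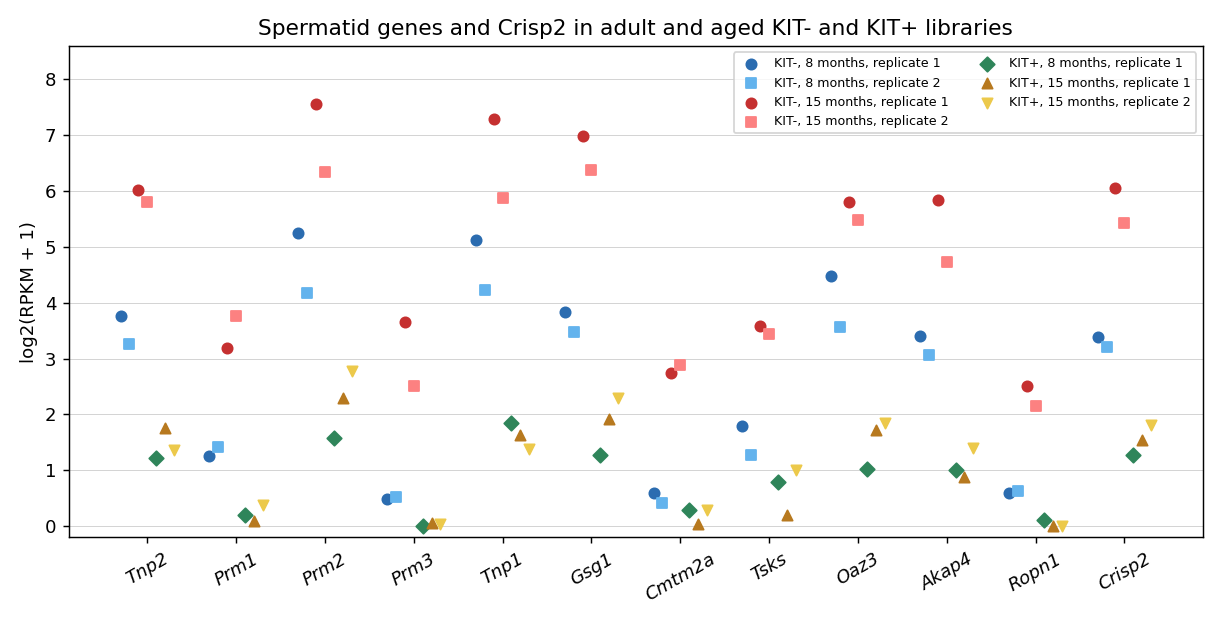
RPKM on log2(RPKM + 1) of 11 spermatid genes and Crisp2 in 4 KIT- and 3 KIT+ libraries of 8 and 15 months. Each symbol is 1 library. The 2 aged KIT- libraries were the highest of the 7 in every gene shown, and the 3 KIT+ libraries were the lowest.

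The lists of earlier stages showed the same direction with fewer calls. How much of their RNA came from spermatids was not tested. The pachytene list, genes of late meiotic prophase, had 4 of 23 higher and 0 lower. Crisp2, a secretory protein of the acrosome and tail, went from 9.49 and 8.24 to 65.2 and 42 RPKM (2.44 ± 0.23, adjusted p = 0.00172, limma), and Pgk2, the testis phosphoglycerate kinase, from 7.39 and 4.53 to 45.0 and 19.9. Adam3 and Meig1 were the other members called. Ldhc, the testis lactate dehydrogenase, was at 41.1 and 28.4 RPKM in adult and 193 and 67.8 in aged libraries and was not called (adjusted p = 0.0681, limma). The meiotic prophase list had 4 of 34 higher and 0 lower, with a median log2 difference of 0.41. Hormad1, a protein of unsynapsed chromosome axes, went from 25.7 and 28.5 to 97.3 and 62.8 RPKM (adjusted p = 0.00982, limma). Tex11, an X-linked recombination factor, went from 38.8 and 41.2 to 85.6 and 74.0 RPKM (0.98 ± 0.10, adjusted p = 0.00262, limma), and Ccdc79 and Smc1b, of telomere attachment and of cohesin, were also higher. The synaptonemal complex genes Sycp3 (0.89 ± 0.24, adjusted p = 0.0672, limma) and Sycp2 (0.66 ± 0.19, adjusted p = 0.0818) did not pass. With 1 or the other adult library left out, 1 pachytene and 1 meiotic gene were called higher, and without aged replicate 2 there were 10 of each.

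Markers of undifferentiated spermatogonia were called in 0 of 28 genes at the thresholds above, against 5.57% of all tested genes. Of the 28, 6 had a positive log2 difference, Gfra1 and Nanos2 among them, and the median was -0.07. Zbtb16 (PLZF), a repressor needed for self-renewal, was at 132 and 141 RPKM in adult and 102 and 119 in aged KIT- libraries (-0.31 ± 0.12, adjusted p = 0.176, limma). Gfra1 and Ret, the receptor pair for GDNF, had log2 differences of 0.43 ± 0.21 and -0.44 ± 0.14. Nanos2, an RNA-binding repressor of differentiation, was at 2.44 and 1.09 RPKM in adult and 4.45 and 5.50 in aged libraries (1.15 ± 0.32, adjusted p = 0.0727, limma). Differentiation markers had 2 of 15 genes higher (13.3%, against 3.33% of all genes) and 0 lower. Stra8 went from 15.5 and 15.5 to 29.0 and 41.3 RPKM (1.11 ± 0.22, adjusted p = 0.031, limma, and 0.069 without aged replicate 2), below its 90.1 to 170 RPKM in KIT+ cells of these ages. Tex101, a germ cell surface protein, went from 116 and 97.3 to 196 and 236 RPKM (1.01 ± 0.18). With 1 or the other adult library left out, 0 genes of this list were called. Sohlh1, a transcription factor of early differentiation, pointed the other way without passing (-0.68 ± 0.23, adjusted p = 0.118, limma).

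In the cell cycle list 9 of 44 genes were higher and 0 lower, though only 1 was called when either adult KIT- library was left out. Gmnn, the inhibitor of replication licensing, went from 51.6 and 55.7 to 192 and 158 RPKM (1.68 ± 0.26, adjusted p = 0.0118, limma). Rrm1 and Rrm2, the subunits of ribonucleotide reductase, had log2 differences of 0.95 ± 0.11 and 0.86 ± 0.18. The helicase subunit Mcm3, the clamp Pcna, the S-phase cyclins Ccne1 and Ccne2, the kinetochore gene Zwint and the spindle motor Kif11 were the others. Mki67, Plk1 and Ccnb1, marks of G2 and mitosis, were not called and had log2 differences of 0.01, -0.12 and -0.21.

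Translation initiation had 4 of 51 genes higher (7.84%, against 3.33% of all genes) and 0 lower. Eif3e, a subunit of the scaffold eIF3, went from 61.7 and 67.9 to 144 and 141 RPKM (1.12 ± 0.09, adjusted p = 0.001, limma), and Eif3d, Eif2b5 and the Y-linked Eif2s3y were the others. In the list of PPAR and mitochondrial regulators 7 of 52 were higher (13.5%) and 0 lower. Acadvl of fatty acid oxidation, Phgdh of serine synthesis and Pdk3, a kinase that restrains pyruvate dehydrogenase, were among them. So was Tfam, a packaging factor of mitochondrial DNA (0.64 ± 0.13). Ppargc1a, the coactivator that drives mitochondrial gene programmes, was at or under 0.193 RPKM in all 4 libraries. The piRNA list had 2 of 24 higher (8.33%), Dazl and Asz1. Dazl, a translational regulator of germ cells, went from 170 and 188 to 263 and 302 RPKM. DNA repair and senescence genes had 3 of 61 higher (4.92%), the kinase Atr, Parp1 and the polymerase Polb. The list had 2 lower (3.28%), and both shares were near the 3.33% and 2.24% of all genes. Cdkn2b, an inhibitor of CDK4 and CDK6, was lower, from 2.46 and 2.20 to 0.200 and 0.0427 RPKM (-1.57 ± 0.21, adjusted p = 0.00639, limma), and the other was the glycosylase Neil2. Most of these counts rested on both adult libraries. Without adult replicate 1 or 2 the higher genes numbered 2 and 2 for translation, 1 and 0 for PPAR and mitochondrial regulators, 0 and 0 for piRNA and 0 and 0 for DNA repair, and with the 6 KIT- libraries the PPAR list had 0. Hspa5, a chaperone of the endoplasmic reticulum, rose from 112 and 104 to 229 and 178 RPKM, and Junb, a transcription factor of AP-1, fell from 5.92 and 6.69 to 3.46 and 3.25.

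**Figure D3:**
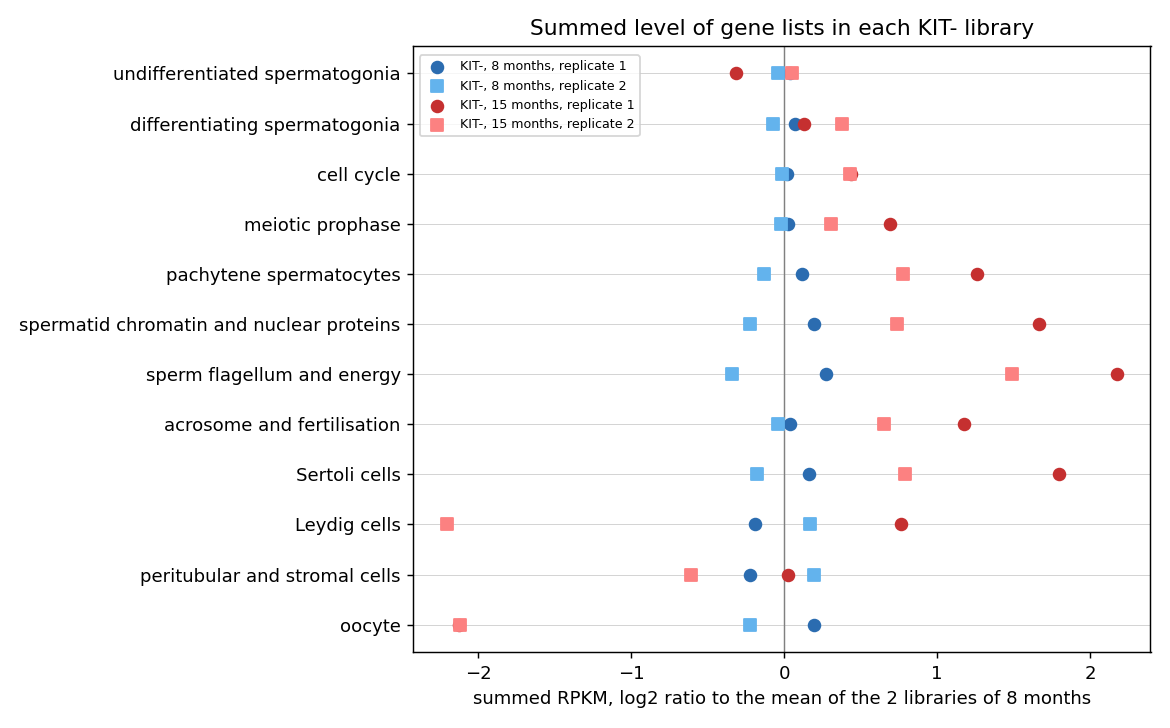
Summed RPKM of 12 gene lists in each KIT- library, as the log2 ratio to the mean of the 2 adult libraries. The spermatid, pachytene and meiotic lists lay above 0 in both aged libraries and further in replicate 1, the Sertoli list did the same, the Leydig list lay on opposite sides of 0 in the 2 aged libraries, and the oocyte list lay below 0 in both.

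Of the lists of somatic cells, only the Sertoli list had a higher sum in both aged KIT- libraries than in the adult ones. Summed RPKM of the 3 spermatid lists was 463 and 334 in adult and 1435 and 818 in aged KIT- libraries, with replicate 1 the higher of the aged pair. In KIT- cells of 6-day-old mice it was 369 and 241. There the chromatin list summed to 329 and 205, against 280 and 210 in adult KIT- libraries. The flagellum and energy list summed to 25.6 and 24.4, against 166 and 108. How much of these sums came from spermatids was not tested. The Sertoli list, of somatic nurse cells, summed to 22.6 and 17.9 RPKM in adult and to 70.1 and 35.0 in aged libraries, again with replicate 1 the higher. None of its 16 genes was called by limma, and 11 of them had a positive log2 difference. The difference in the sum came mainly from Cst9 (27.7 and 9.45 RPKM in aged libraries) and Aard (12.2 and 5.29). The members Sox9 and Amh were at or under 0.397 RPKM in all 4 libraries. The Leydig list, of steroid-making cells, summed to 11.5 and 14.7 RPKM in adult and 22.2 and 2.84 in aged libraries. Of its 9 tested genes 8 were higher in aged replicate 1 than in aged replicate 2, 5 of them over 2-fold. Insl3 was listed at 0 in all 4 libraries, and Hsd3b1, the only member called, was lower (1.94 and 2.46 to 0.492 and 0 RPKM). In the lists of peritubular cells, red blood cells and motile axonemes 1 gene each was lower, Col1a1, Hba-a2 and Dnahc2. Of the macrophage genes 0 of 11 and of the endothelial genes 0 of 7 were called. The macrophage sum went from 7.71 and 7.42 to 4.60 and 2.50 RPKM, and the endothelial sum from 8.26 and 8.43 to 8.20 and 7.09. The peritubular sum went from 22.6 and 30.1 to 26.8 and 17.3 RPKM. The part of these other cells in the spermatid result was not tested. Leaving out aged replicate 1 gave 30 spermatid genes higher and 3 lower (Odf4, Cmtm2b and Ak7), and leaving out aged replicate 2 gave 45 higher and 1 lower (Acr), names chosen after their values were seen.

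Among genes lower in aged KIT- cells, those known from oocytes included 14 lower and 0 higher of 24 tested, against 2.24% of all genes. Their median log2 difference was -1.21, and -1.60 with 8 genes at 0 in both aged libraries set at their bounds. Those 8 genes met the filter of at least 10 reads only through other libraries. With no filter on low values, 14 of the 28 list members were lower. The list was written with earlier results of these data known, so its share beside that of all genes is not a test. H1foo, the oocyte linker histone, was at 29.9 and 20.7 RPKM in adult libraries and had 0 reads in both aged libraries, at least 368-fold lower against the floor of 3 reads (adjusted p = 7.63e-05, limma). The adult KIT+ library held 12.8 RPKM of H1foo and both aged KIT+ libraries held 0. Oosp1 was at least 137-fold and Bmp15, a growth factor of the oocyte, at least 152-fold lower. Obox1 and Obox5, also lower, belong to a family of near copies, so their single values are uncertain. Gdf9, the partner of Bmp15, went from 15.5 and 9.65 to 0.0998 and 0.484 RPKM, and Bcl2l10, Btg4, Mos, Padi6, Zar1, Astl, Oas1d and E330034G19Rik were the other members called. Of the 12 lower genes that ranked first by p, all but AC161763.1 were at 0 in both aged libraries, with bounds from at least 59.7-fold lower for Omt2a to 368-fold for H1foo, and outside the oocyte list they were Omt2a, Omt2b, Tcl1b1, Gm97, E330021D16Rik and Gm15698. In all, 61 of the 412 lower genes were at 0 in both aged libraries, whereas 10 of the 613 higher genes were at 0 in both adult libraries. A group with all libraries at 0 adds no spread to the fit, which lowers the p of such genes.

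Genes of the mitochondrial genome were another group with lower calls. Of its 12 tested protein genes, 6 were lower and 0 higher, but 0 were called without adult KIT- replicate 2. mt-Cytb, of complex III, was at 176 and 256 RPKM in adult and 42.3 and 58.1 in aged KIT- libraries (-2.08 ± 0.27, adjusted p = 0.00584, limma). mt-Nd4 and mt-Nd2, of complex I, went from 301 and 339 to 65.8 and 124 and from 205 and 260 to 54.0 and 89.1 RPKM. mt-Nd5, mt-Nd6 and mt-Nd4l were the others, and mt-Nd4l overlaps mt-Nd4. The other 6 were not called. Among them mt-Nd1, mt-Co1 and mt-Co2 had log2 differences of -0.89, -0.66 and -1.05. mt-Co3 was at 6258 and 6333 RPKM in adult and 6768 and 9012 in aged libraries, and mt-Nd3 at 5644 and 4456 against 3151 and 9696, so the aged libraries of mt-Nd3 stood on both sides of the adult ones. None of the 12 tested genes was higher in aged replicate 1 than in aged replicate 2. Summed RPKM of the mitochondrial protein genes was 26662.3 and 27235.1 in adult and 16446.9 and 28308.5 in aged KIT- libraries. In KIT+ cells mt-Cytb was at 220 RPKM in the adult library and 48.6 and 65.8 in the aged libraries. In KIT- cells of 6-day-old mice mt-Cytb lay between the ages at 94.2 and 104 RPKM, mt-Nd2 lay within the aged range at 77.8 and 79.4, and mt-Nd6 lay within the adult range at 17.8 and 21.6. mt-Atp6 and mt-Atp8 were listed at or near 0 in all 4 libraries, and how reads in overlapping mitochondrial genes were counted was not tested, so levels within this genome are uncertain. Nuclear genes of oxidative phosphorylation moved both ways, with 3 higher (Cox5a, Atp5c1 and Cox7b2) and 3 lower (Cox8a, Ndufs6 and Atp5d) of 80, of which 0 were called without adult replicate 1.

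**Figure D4:**
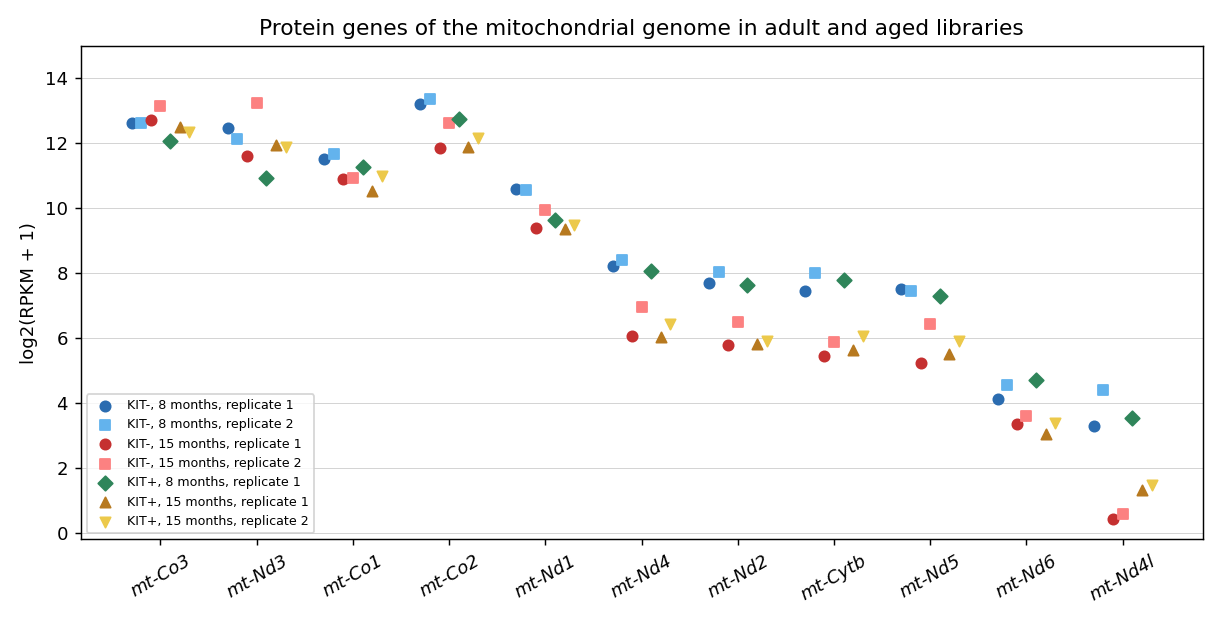
RPKM on log2(RPKM + 1) of 11 protein genes of the mitochondrial genome in 4 KIT- and 3 KIT+ libraries, each symbol 1 library. For mt-Nd4, mt-Nd2, mt-Cytb, mt-Nd5, mt-Nd6 and mt-Nd4l all 4 aged libraries lay below all 3 adult libraries, whereas for mt-Co3 and mt-Nd3 they did not.

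The signalling lists held few calls, 7.84% lower for TGF-beta and BMP, 4.26% for Wnt, 7.69% for hedgehog and 4.76% for mTORC1, the latter pair 1 gene each, against 2.24% of all genes. With 1 or the other adult library left out, 0 TGF-beta, Wnt or hedgehog genes were called, and without adult replicate 1 no mTORC1 gene. In the TGF-beta and BMP list 4 of 51 were lower and 0 higher: the ligands Tgfb1 and Tgfb2, the activin receptor Acvr2b and the latent binding protein Ltbp4. Acvr2b, the most abundant of them, went from 24.3 and 22 to 12.8 and 15.7 RPKM (-0.67 ± 0.13, adjusted p = 0.0248, limma). The Wnt list had 2 lower of 47, the receptor Fzd2 and the secreted binder Sfrp2 (9.45 and 8.55 to 3.84 and 2.02 RPKM). Ptch1, the hedgehog receptor, went from 32.5 and 30.6 to 15.5 and 20.2 RPKM (-0.80 ± 0.19, adjusted p = 0.0469, limma, and 0.0988 without aged replicate 1), while its level in KIT+ cells of these ages was at most 2.51 RPKM. Ddit4, an inhibitor of mTORC1, went from 152 and 103 to 56.9 and 56.3 RPKM (-1.13 ± 0.22, adjusted p = 0.0257, limma), with both aged libraries nearly equal. Of the interferon list Ifitm2 and Ifitm3, membrane proteins that restrict viruses, were lower. Rara, a receptor for retinoic acid, and the kinase Src were also lower, while Rdh11, a retinol dehydrogenase, was higher. Tcl1, an activator of AKT, went from 25.6 and 20.9 to 5.14 and 10.6 RPKM (-1.52 ± 0.29).

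Lists of chromatin, adhesion, splicing and ribosomal genes had 3.75%, 6.17%, 4.12% and 5.0% lower, against 2.24% of all genes. Each of these shares rested on 3 to 5 genes. Their shares of higher genes were 0%, 2.47%, 2.06% and 1.25%, against 3.33% of all genes. With 1 or the other adult library left out, 1 chromatin, 1 adhesion and 0 splicing genes were lower, and 0 or 2 ribosomal genes. The histone methyltransferases Mll2, Mll3 and Setd1a, which act on histone H3 lysine 4, were the 3 lower genes of 80 in the list of DNA and histone modifying enzymes, and 0 were higher. Mll2 went from 16 and 16.4 to 6.01 and 6.92 RPKM (-1.21 ± 0.12, adjusted p = 0.00225, limma), and in KIT+ cells from 7.97 in the adult library to 2.75 and 2.95. Of 81 adhesion genes 5 were lower and 2 higher. Zyx, of focal adhesions, went from 11.6 and 9.87 to 4.18 and 3.30 RPKM (-1.31 ± 0.15), and Cdh2, Lamc1 and Fn1 were also lower, while Tns1, also of focal adhesions, and Pvrl3, a nectin, were higher. Replication histones had 7 lower and 2 higher of 59, but 1 lower with 1 or the other adult library left out, with no filter on low values or with quality weights, and 2 with pseudocount 0.1. Hist1h3h went from 85.2 and 82.7 to 5.30 and 13.5 RPKM (-3.15 ± 0.36, adjusted p = 0.00352, limma), and Hist1h2ba, a testis histone H2B, rose from 43.3 and 42.5 to 252 and 125. Members of these clusters are near copies of each other, so reads may be split between them. Splicing regulators had 2 higher (Matr3 and Tardbp) and 4 lower (Msi1, Clk2, Sf1 and Rbm38) of 97, and ribosomal protein genes 1 higher (Rps14) and 4 lower (Rpl6, Rpl27a, Rpl31 and Rps20) of 80.

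Long noncoding RNAs had 5 higher and 19 lower of 695 lincRNA genes, while protein-coding genes had 562 higher and 315 lower of 15858. Wbscr25 went from 1.12 and 0.909 to 4.92 and 2.45 RPKM (1.17 ± 0.23, adjusted p = 0.029, limma). H19, the imprinted growth-restraining RNA, was at 10.5 and 14.1 RPKM in adult and 21.4 and 25.8 in aged libraries and did not pass (adjusted p = 0.0525, limma). 1110050K14Rik (Fendrr) had a log2 difference of -0.64 ± 0.19 and its neighbour Foxf1a one of -0.28 ± 0.23, and neither passed. Peg10, an imprinted gene derived from a retrotransposon, fell by 0.92 on the log2 scale. Taf7l, Mbnl2, Sfi1 and Gtf2f1 were not called, with log2 differences of 0.59, -0.55, -0.06 and 0.33.

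KIT+ cells of the same ages shared no library with the KIT- comparison and had 1 adult library. The age test in KIT+ cells called 97 genes, 0.527% of those tested. Both aged KIT+ libraries were at least 1.5-fold above the adult KIT+ library for 107 of the 613 genes higher in aged KIT- cells (17.5%, against 3.37% of all tested genes), and at least 1.5-fold below it for 160 of the 412 lower ones (38.8%, against 5.17% of all). H1foo, mt-Cytb and Mll2 were among the latter. Summed RPKM of the spermatid chromatin list was 130 in the adult KIT+ library and 301 and 251 in the aged KIT+ libraries, and that of all 3 spermatid lists 183 against 359 and 316. The chromatin list summed to 329 and 205 in KIT- cells of 6-day-old mice. For the flagellum and energy list the sum was 38.5 in the adult KIT+ library and 40.8 and 49.2 in the aged KIT+ libraries, against 166 and 108 in adult and 620 and 385 in aged KIT- libraries. A test of the difference of the age effect between KIT- and KIT+ cells called 18 genes, or 0.0978% of those tested, at an adjusted p of at most 0.05 (limma). Among them Cmtm2a (2.45 ± 0.22), Cntnap5b (1.60 ± 0.15), 4931403G20Rik (1.35 ± 0.13) and Bcl2l14 (1.53 ± 0.16) rose in KIT- cells relative to KIT+ cells, and SNORA17 led the list (3.04 ± 0.20). SNORA17 was at 0 in every KIT+ library of these ages, and such groups add no spread to the fit. The other sign was held by 7SK (ENSMUSG00000089576), which had 3 reads in each adult KIT- library, and by Hist1h3h (-4.65 ± 0.57), which was at 47.9 RPKM in the adult and 133 and 142 in the aged KIT+ libraries. The count of such genes was 0 once a mean level of 1 RPKM was required (1284 at an unadjusted p under 0.05).

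The 2 aged KIT- libraries differed from each other more than the 2 adult ones. The root mean square log2 difference between the libraries of an age was 0.62 in aged and 0.32 in adult KIT- cells, beside 0.37 in aged KIT+ and 0.40 in KIT- cells of 6-day-old mice. More than 2-fold apart were 1425 genes between the aged libraries, 931 higher in replicate 1 and 494 higher in replicate 2, against 270 genes between the adult libraries. Thinning all libraries to equal depth gave 1487 and 292. Short genes were most often apart: 57.3% of 527 tested genes with under 200 bp of exon were over 2-fold apart in aged cells, and 2.41% of 13013 genes with at least 2000 bp, where the adult libraries had 31.9% and 0.

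**Figure D5:**
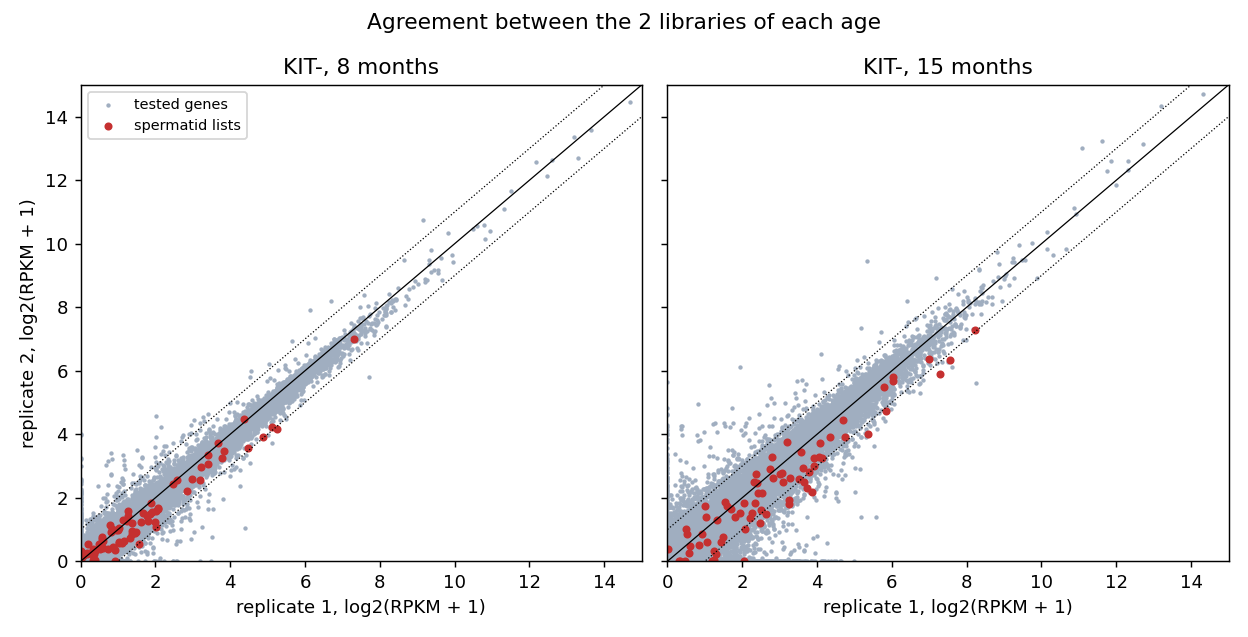
Replicate 2 against replicate 1 of each age on log2(RPKM + 1) for 18412 tested genes, with 74 spermatid genes in red, the solid line at equality and dotted lines at 1 log2 unit on either side. The cloud was wider at 15 months, and there 17 spermatid genes lay over 2-fold higher in replicate 1 and 0 in replicate 2.

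The 20 genes furthest apart between the aged libraries with a mean of at least 5 RPKM were mostly small RNAs, 18 with under 200 bp of exon. Higher in replicate 1 were Gm10973 (30.9 and 0 RPKM), the small nucleolar RNAs SNORD63 (23.8 and 0), Snord19, Snord72 and Snord49b, 2 copies of the spliceosomal RNA U6, Mir29a, Mir669a-3 and Gm10256. Gm10256, on the Y chromosome, was at 20.8 RPKM in replicate 1 and at 0 in replicate 2 and in both adult libraries. Higher in replicate 2 were AY036118 (39.6 and 700 RPKM, and 24.4 and 20.7 in adult libraries), Mir186 (2.86 and 67.9), Snord110 (0 and 48.6), SNORD58, SNORD113, Mir1898, Mir1943, mmu-mir-2134-4, AC132471.1 and AC126942.1. None of the 20 was called for age. Among protein-coding genes with at least 500 bp of exon, a set chosen after the values were seen, 711 were over 2-fold apart in aged and 38 in adult cells. Fabp9, a lipid-binding protein of the sperm head, was at 303 and 47.9 RPKM in aged libraries, against 16.3 and 6.50 in adult libraries, and was not called (adjusted p = 0.0582, limma). Aldh1a1, a retinal dehydrogenase, was at 21.7 and 3.02 RPKM, and 1810022K09Rik at 12.3 and 1.63. Pxt1, Hist1h3a and 4930579G22Rik were over 2-fold higher in replicate 2 (26.1 against 8.99 RPKM for Pxt1).

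Some of the 12 higher genes that ranked first by p were nearly equal in the 2 aged libraries. A low p favours genes with little spread within a group, so this followed in part from how they were chosen. Cntnap5b, a cell adhesion gene, was at 0.144 and 0.211 RPKM in adult and 2.35 and 2.56 in aged KIT- libraries (1.55 ± 0.09, adjusted p = 0.000242, limma). Bcl2l14, of the BCL2 family, went from 0.319 and 0.382 to 3.11 and 3.19 RPKM, and Ubqlnl, a ubiquilin-like gene, from 0.356 and 0.366 to 2.21 and 2.06. The rest of the 12 higher genes that ranked first by p were SNORA17, Cmtm2a, 4931403G20Rik, Gm11149, BC051628, 4930571K23Rik, 1700008P02Rik, 4933405O20Rik and Lrrc67, and apart from Cmtm2a, 1700008P02Rik and SNORA17 none exceeded 5.39 RPKM. Of all 613 higher genes, 370 lay further from the adult mean in replicate 1 and the median log2 difference from that mean was 1.00 in replicate 1 and 0.94 in replicate 2.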

How the data were processed

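The authors deposited 1 table of RPKM values per library, with 39331 rows and 37991 gene identifiers, in which the rows of a repeated identifier held equal values and were merged into 1 gene. Per the labels, reads were processed with Trim Galore and RSEM on mm9, whereas the study's methods name Trimmomatic, featureCounts and DESeq2. The tool that gave the RPKM and the strand of counting are not given in the sources used here. Of the values above 0, 98.1% to 98.2% in each library were whole multiples of 1 read (within 0.05), from which reads and depth were recovered. Depth limits precision at low levels, where 3 reads on 1 kb of exon equal 0.0760 to 0.245 RPKM in these 4 libraries, and this covers counting error only.

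Genes with at least 10 reads in at least 2 of 11 libraries were tested on log2(RPKM + 1), pseudocount 1, with limma 3.58.1 (trend, R 4.3.3) and 6 groups. The interaction of age and KIT used the same fit. Genes named were the 12 with the lowest p in each direction, up to 4 called members of each of 36 gene lists per direction, genes the study's text names, the 10 furthest apart between the aged libraries in each direction, the 5 leading interaction genes in each direction, and Kit and Pou5f1. Other list members were named as examples or to complete a list after their values were seen. Lists and members were chosen with earlier results of these data known. Sequences were read from NCBIM37 and from RefSeq promoters of GRCm38.p6. Alternatives were the pseudocount 0.1, other filters, scalings, weights and subsets, and each replicate left out. The labels do not tie same-numbered adult and aged libraries to each other, and these did not deviate together (r = -0.02 across genes). Some genes are not reported here by name.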

Additional observations from a re-analysis of the deposited data

Results flagged for a closer look

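The age effect differed between KIT- and KIT+ cells in 18 genes by a test of the difference itself (limma, adjusted p of at most 0.05), which rested on 1 adult KIT+ library. Of these, 16 rose in KIT- relative to KIT+ cells. SNORA17 had a difference of 3.04 on the log2 scale, 1700022A21Rik 2.52, Cmtm2a 2.45, 1700008P02Rik 2.37, 4930571K23Rik 1.98, Ropn1 1.83 and 1700017N19Rik 1.75. Cntnap5b followed with 1.60, Bcl2l14 with 1.53, 1700042G07Rik with 1.48, 4933405O20Rik with 1.45, 4931403G20Rik with 1.35 and Lrrc67 with 1.35. Ubqlnl had 1.18, BC051628 1.15 and Gm11149 1.06. The difference was negative for 7SK (-2.50) and Hist1h3h (-4.65). Names beyond the 5 leading genes in each direction were added after their values were seen. Groups here hold at most 2 libraries, so single libraries were not tested as outliers.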

How the results depend on the processing

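The numbers of genes depended on the spread used. Genes higher and lower at 15 months numbered 613 and 412 with all 11 libraries, 155 and 109 with the 6 KIT- libraries alone, 222 and 229 with voom weights on reads (49.2% of calls higher, against 59.8%), 239 and 104 with library quality weights (0.356 for aged and 1.58 for adult KIT- libraries) and 0 and 0 with the 4 libraries. Leaving out 1 library each gave 145 to 1054 higher and 88 to 748 lower genes. Higher spermatid genes numbered 34, and 14 with pseudocount 0.1, 9 with the 6 KIT- libraries, 9 with voom, 18 with quality weights, 0 with the 4 libraries and 12 to 45 with 1 library left out. Lower oocyte genes numbered 14, and 7 of 11 tested at a mean of at least 1 RPKM, 0 with the 4 libraries and 14 to 15 with 1 library left out. Lower mitochondrial genes numbered 6, and 1 with the 6 KIT- libraries, 2 with quality weights, 0 with the 4 libraries and 0 to 7 with 1 library left out. Higher cell cycle genes numbered 9, and 3 with the 6 KIT- libraries, 3 with quality weights, 0 with the 4 libraries and 1 to 9 with 1 library left out. Genes whose age effect differed between KIT- and KIT+ cells numbered 18, and 1 with pseudocount 0.1, 297 with no filter on low values, 0 at a mean of at least 1 RPKM, 2 with voom, 6 with quality weights and 1 to 206 with 1 library left out. With fewer libraries the fit has fewer degrees of freedom. The main fit shared 1 spread per gene over all groups. The root mean square log2 difference was 0.62 between the aged KIT- libraries and 0.32 to 0.40 in the other pairs. The main p-values therefore do not allow in full for the wider spread of aged KIT- libraries. The cause of the differing counts was not tested. A lone library left in a group was assumed to vary like the other groups.

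A replicate block, although the numbers do not pair these libraries, gave 560 higher and 350 lower genes and 2 genes with a differing age effect. The direction of the 123 called genes tracked across alternatives held in each alternative that tested them. The libraries of the 2 ages did not overlap in any called gene. Leaving out libraries or changing the pseudocount or filter could therefore not reverse a direction. Of the 123 genes, 49 stayed called with the 6 KIT- libraries and 0 with only the 4 KIT- libraries of these ages. Pou5f1, not called, changed sign without replicate 1 of either age (-0.42 to 0.22 over the libraries left out) and Sfi1 without adult replicate 1 (0.019, range -0.14 to 0.019). Between the aged libraries, genes over 2-fold apart numbered 4566 with pseudocount 0.1 and 711 among protein-coding genes of at least 500 bp. The root mean square log2 difference was 1.28, 0.67, 0.60, 0.63 and 0.47 with pseudocount 0.1, at a mean of at least 1 RPKM, with median-of-ratios scaling, after thinning and among those protein-coding genes.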

Other observations

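Genes still known by RIKEN clone numbers were frequent among those higher in aged KIT- cells. Of 529 tested genes whose symbols carry the number of a clone series made mostly from testis 78 were higher (14.7%) and 5 lower (0.945%), while among 995 other RIKEN symbols 15 were higher (1.51%) and 17 lower (1.71%). This set was chosen after the values were seen.

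By chromosome, the share of tested genes higher in aged KIT- cells was, among the autosomes, lowest on chromosome 13 (2.0% of 700) and highest on chromosome 12 (5.65% of 637). The X chromosome had 30 higher and 8 lower of 778 genes. Small RNA genes had more lower than higher calls, with 13 lower and 5 higher of 241 snoRNA genes and 11 lower and 2 higher of 168 miRNA genes.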
